A study of Mus musculus with 18 samples.

Results

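Layers 5 and 6 (L5-6) were compared with layer 4 (L4) in the neocortex of 3 GFP mice, using 6 of the 18 libraries of the series. The libraries were chosen by their titles: those labelled GFP and L5-6 were set against those labelled GFP and L4, and the replicate number marked the mouse. The mice were of the outbred CD-1 stock. They had been electroporated in utero at E14.5 with empty plasmid and a Gfp cDNA, driven into the wall of the ventricle, and brains were taken at postnatal day 7. Sagittal sections of 300 µm were microdissected, and the tissue of each layer was pooled for each mouse, so that each library is 1 layer of 1 mouse and not a sort of 1 cell type. Per the labels, electroporated GFP-positive cells lay in L4, while the dissected L5-6 held GFP-negative cells. The promoter that drove the plasmid is not stated in the labels, and a share of L4 cells that carried it is not given in them. The 3 remaining GFP libraries, from layers 2-3 (L2-3) of the same mice, entered the fit so that all layers shared 1 estimate of the spread. The other 9 libraries came from FOXP2 mice, treated likewise but given human FOXP2 (huFOXP2, 2 mice) or mouse Foxp2 (moFoxp2, 1 mouse) cDNA. The 6 FOXP2 libraries of L5-6 and L4 served as a second, separate set of mice.

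The neocortex is built in layers that are born from the inside out. Layers 5 and 6 hold the early-born neurons that send axons out of the cortex, to thalamus, brainstem and spinal cord, and beneath them lie layer 6b, a remnant of the subplate, and then the white matter. Layer 4 holds the main input neurons of sensory cortex, which receive axons from the thalamus and stay local. Around the first postnatal week the oligodendrocyte precursors of the white matter and deep cortex begin to mature, wrapping axons with myelin. Myelin forms later in the upper layers.

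The 3 L5-6 libraries held 12704557, 21462671 and 19306093 counts in GFP mice 1, 2 and 3, and the 3 L4 libraries 10111149, 12988248 and 23026898. Values of 3 mice are given in this order throughout. Levels are normalised read counts (CPM, counts per fixed library total), scaled by TMM size factors and not corrected for gene length, so levels of different genes are not compared. The L5-6 library of mouse 1 stood apart. Its summed level over 19 myelin genes was 3863 CPM, against 1017 and 1950 CPM in L5-6 of mice 2 and 3, and its mitochondrial genes took 7.5% of counts, against 4.38% and 4.90%. In L4 the mitochondrial share was 5.25%, 3.31% and 3.33%, lower than in L5-6 of the same mouse in 3 of 3 mice. In L2-3 it was 5.03%, 3.98% and 3.73%. Mouse 1 thus had the highest mitochondrial share in every layer, and not in L5-6 alone. Counts could not be split by strand: exons of several genes below overlap another annotated gene, among them Nefm with Nefl, Gabra4 with Gabrb1, Cnp with Dnajc7, Gpr17 with Lims2, Csf1r with Hmgxb3, Tmem163 with Mgat5, Pcp4 with Igsf5 and Lxn with Gfm1, and the counts of these are uncertain. Of 148 genes chosen by the naming rule, 1 (Hspa8) lost its call without mouse 1. In dissected tissue, fewer cells of a type and less RNA per cell cannot be told apart.

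Both genes chosen to mark the contrast separated the layers in every mouse. Mobp, which encodes a protein of compact central myelin, lies on mm10 chromosome 9 from 120149707 to 120181484 on the plus strand. It had 118, 13.8 and 62.6 CPM in L5-6 and 0.488, 0.165 and 0.316 CPM in L4. The groups did not overlap, and mouse 1 was the highest in both layers. The difference was a log2 fold change of 7.55 ± 0.27 (SE, n = 3 mice, edgeR adjusted p = 1.33e-05). Its L4 values rest on few reads, whose counting error alone is larger than this SE, so the fold is less certain than the SE shows. Cplx3 encodes a complexin, a regulator of vesicle fusion that is found in subplate and layer 6b neurons. It lies on chromosome 9 from 57599992 to 57606281 on the minus strand and had 78.1, 87.5 and 74.2 CPM in L5-6 against 5.17, 3.13 and 2.31 CPM in L4. Its L5-6 values lay close together, unlike those of Mobp, and its log2 fold change was 4.58 ± 0.23 (SE, edgeR adjusted p = 6.74e-05).

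Promoters of Mobp, of Cplx3 and of Vip, a peptide gene that was lower in L5-6, are shown as examples of a myelin gene, a layer 6b gene and a gene of the opposite direction. Each runs from 250 bases before to 50 bases after the RefSeq start in GRCm38.p6, the assembly of mm10, 5′ to 3′ on the strand of the gene. Capitals mark CTTTGT, the reverse complement of ACAAAG, a core bound by SOX factors; Sox10 of this family acts on myelin genes.
Mobp, chr9:120149492-120149791, plus strand: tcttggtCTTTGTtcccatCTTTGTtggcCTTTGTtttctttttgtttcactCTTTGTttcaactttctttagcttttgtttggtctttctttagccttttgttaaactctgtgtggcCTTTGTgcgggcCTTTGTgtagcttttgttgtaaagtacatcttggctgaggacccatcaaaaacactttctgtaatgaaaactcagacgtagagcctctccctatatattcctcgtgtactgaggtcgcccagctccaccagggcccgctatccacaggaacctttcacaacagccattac
Cplx3, chr9:57606232-57606531, minus strand: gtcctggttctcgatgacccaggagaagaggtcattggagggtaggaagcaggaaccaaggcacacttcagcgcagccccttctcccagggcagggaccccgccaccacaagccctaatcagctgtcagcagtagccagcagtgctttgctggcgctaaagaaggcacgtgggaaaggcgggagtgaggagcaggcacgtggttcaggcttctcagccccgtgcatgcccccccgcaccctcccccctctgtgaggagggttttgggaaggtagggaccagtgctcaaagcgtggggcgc
Vip, chr10:5638968-5639267, plus strand: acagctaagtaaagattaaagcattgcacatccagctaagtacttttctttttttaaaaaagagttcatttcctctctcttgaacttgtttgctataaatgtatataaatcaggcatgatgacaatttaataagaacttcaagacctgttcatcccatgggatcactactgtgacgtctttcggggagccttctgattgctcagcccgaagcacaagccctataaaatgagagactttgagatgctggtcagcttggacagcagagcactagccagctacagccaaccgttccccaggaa

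The Mobp window held 6 SOX cores, all in the CTTTGT orientation, and was the only 1 of 32851 promoters in the RefSeq table with 6. The Cplx3 and Vip windows held none. Counted on both strands, at least 1 core was present in 9 of 29 promoters (31%) of the oligodendrocyte genes, for which 22 of 31 genes matched the table. It was present in 122 of 647 promoters (18.9%) of genes at least 2-fold higher in L5-6, in 37 of 204 (18.1%) of genes at least 2-fold lower, in 2075 of 14907 (13.9%) of all genes tested and in 6147 of 32851 (18.7%) of all promoters. The site AGGTCA, or TGACCT on the other strand, is bound by ROR receptors such as the one encoded by Rorb. It was present in 85 of 647 promoters (13.1%) of the higher genes and 22 of 204 (10.8%) of the lower genes. The share was 1 of 29 (3.45%) for the oligodendrocyte genes, 1843 of 14907 (12.4%) for all genes tested and 5340 of 32851 (16.3%) for all promoters. The Cplx3 window held 1 such site, not marked above, and the Mobp and Vip windows held none. The ends of both motifs can share up to 2 letters, and 56 of 32851 promoters held matches that overlapped in this way. Both motifs were chosen after the expression values were seen, and a match describes the letters in the window only.

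**Figure D1:**
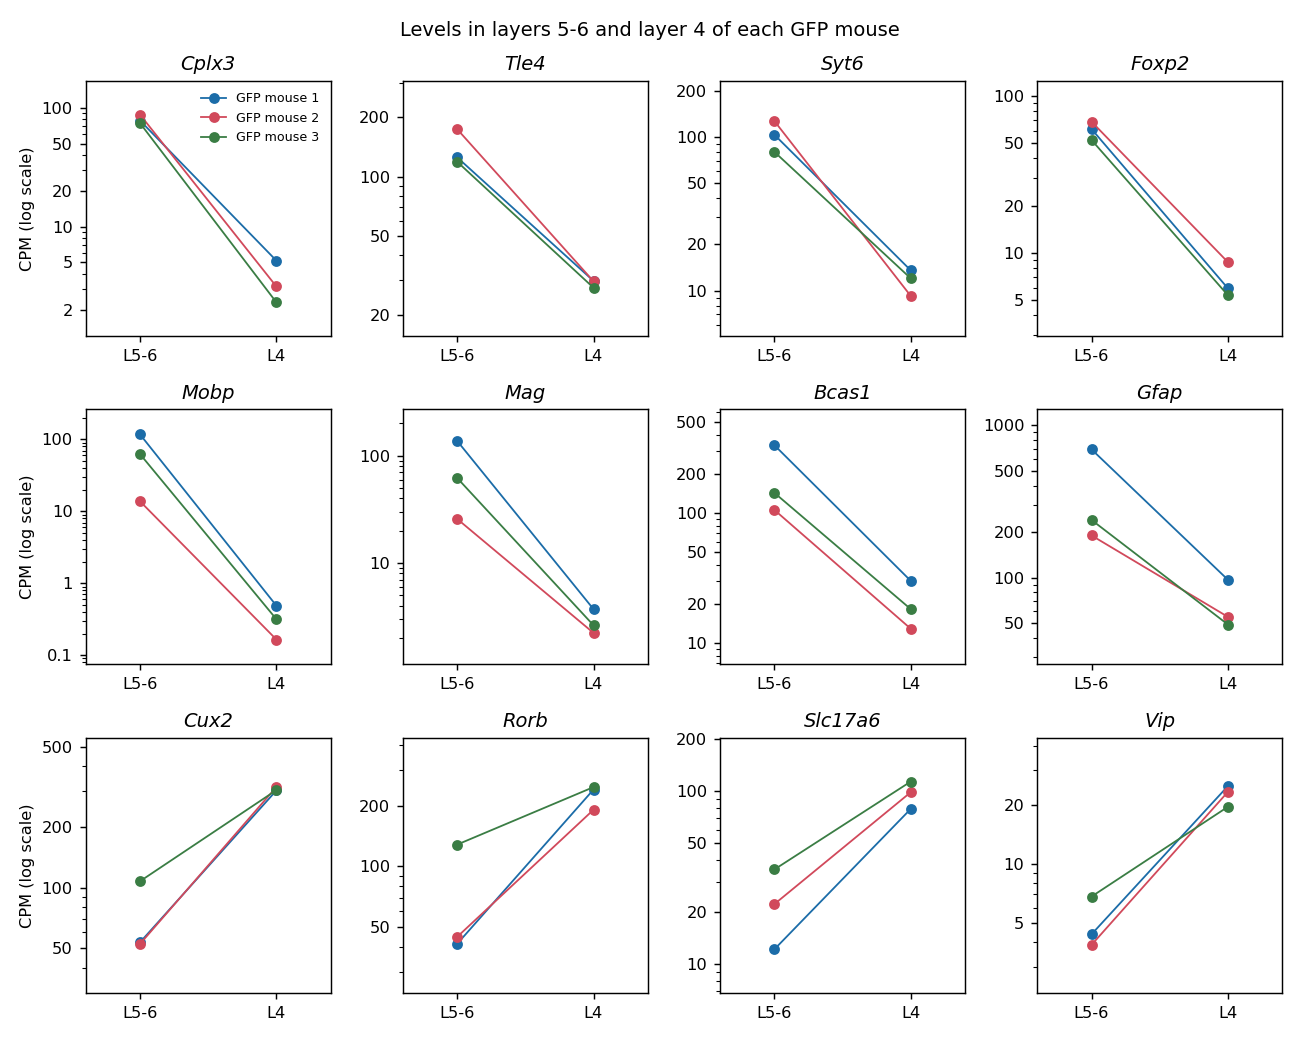
Normalised read count (CPM, log axis) of 12 genes in L5-6 (left) and L4 (right), 1 point per library, with a line joining the libraries of each of the 3 GFP mice. Mobp and Cplx3 were higher in L5-6 in 3 of 3 mice, and Rorb and Cux2 were lower in L5-6 in 3 of 3 mice.

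Of 15698 genes tested, 1999 (12.7%) were higher and 1564 (9.96%) were lower in L5-6 than in L4 at an edgeR adjusted p under 0.05, and 6030 (38.4%) had an unadjusted p under 0.05. The median log2 fold change of all genes tested was 0.00. The higher genes had the larger changes: their median absolute log2 fold change was 0.80, against 0.48 for the lower genes. Counts of list members below are read against these 2 shares. Of the same 15698 genes, 4790 did not overlap between the layers and 9733 had the same sign in all 3 mice. Among the 1999 higher genes 1433 did not overlap, and among the 1564 lower genes 1109 did not. At 2-fold or more, 692 genes (4.41%) were higher and 257 (1.64%) lower. At an absolute log2 fold change of 4 or more, 22 were higher and 1 was lower. Without mouse 1 there were 2484 higher and 1848 lower genes, without mouse 2 there were 927 and 463, and without mouse 3 there were 400 and 270. Of the 1999 higher genes, 1850 were also called without mouse 1, 897 without mouse 2 and 384 without mouse 3. Protein-coding genes made up 1907 of the higher and 1471 of the lower genes. Their median span on the genome was 35.1 kb for the higher and 40.5 kb for the lower genes, against 25.9 kb over the 14142 protein-coding genes tested, and 27.9% of the lower protein-coding genes, 21.3% of the higher and 16.1% of those tested spanned over 100 kb.

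**Figure D2:**
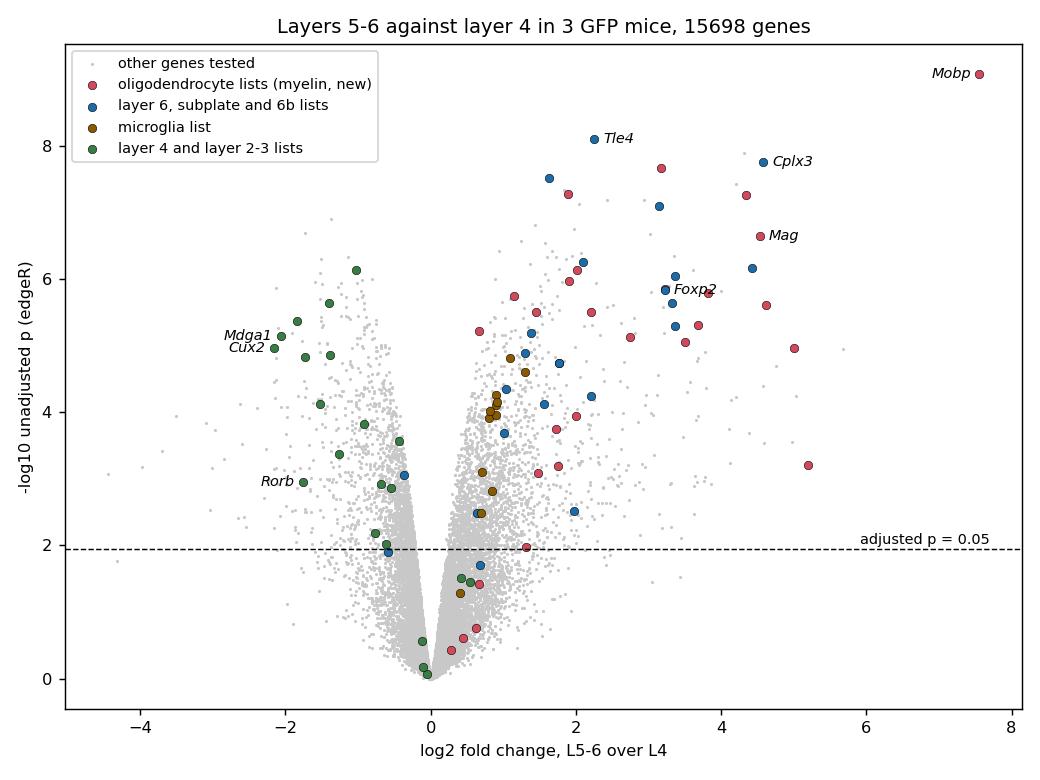
Log2 fold change of L5-6 over L4 in GFP mice (x axis) against -log10 of the unadjusted p (y axis) for 15698 genes, 1 point per gene, with genes of the oligodendrocyte, layer 6 and subplate, microglia, and layer 4 and 2-3 lists in colour and a dashed line at an adjusted p of 0.05. Genes higher in L5-6 reach further from 0 (Mobp at 7.55) than genes lower in L5-6 (lowest value -4.44).

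Genes of layer 6 corticothalamic neurons, which project back to the thalamus, separated the dissections. Of 14 listed genes, 12 were higher in L5-6 and 1 was lower, and the median log2 fold change of the list was 1.59. Foxp2, a forkhead transcription factor of deep-layer neurons on chromosome 6 from 14901349 to 15441977, had 61.6, 68.6 and 52.4 CPM in L5-6 and 5.95, 8.74 and 5.38 CPM in L4. The groups lay far apart in every mouse, with a log2 fold change of 3.23 ± 0.28 (SE, edgeR adjusted p = 0.000383). Tle4, a corepressor of transcription, had 125, 174 and 119 CPM in L5-6 against 29.7, 29.5 and 27.4 CPM in L4 (log2 fold change 2.25 ± 0.10, SE, edgeR adjusted p = 6.25e-05). Syt6, a synaptotagmin, had 104, 127 and 80.3 CPM in L5-6 against 13.6, 9.24 and 12 CPM in L4 (3.14 ± 0.19, edgeR adjusted p = 8.93e-05). In both genes mouse 2 was highest in L5-6, and no L4 value came near the L5-6 range. Zfpm2, a cofactor of GATA factors, and Grik3, a kainate receptor subunit, had log2 fold changes of 2.09 ± 0.16 and 1.62 ± 0.09 (SE, edgeR adjusted p = 0.000269 and 8.17e-05). The largest log2 fold changes of the list were those of Nxph3 at 3.37, a neurexin ligand, and Sulf1 at 3.37, a heparan sulfate sulfatase. Foxp1, the lower member, had a log2 fold change of -0.37. Ntsr1, the neurotensin receptor used to mark layer 6 cells in adult mice, had 31.2, 59.9 and 55.6 CPM in L5-6 and 76.9, 71.5 and 68.2 CPM in L4, opposite to its listed role, and did not pass the test (-0.58 ± 0.19, edgeR adjusted p = 0.0537).

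Genes of subplate and layer 6b neurons, the deepest and oldest neurons of the cortex, were higher in L5-6 in 7 of 8 tested members, with a median log2 fold change of 2.09. Their summed level was even across mice, at 296, 291 and 286 CPM in L5-6 and 60.8, 56.4 and 58.2 CPM in L4. Ctgf, a secreted matrix protein and the classical marker of these cells, had 39.7, 50.6 and 45.8 CPM in L5-6 and 2.54, 2.80 and 1.49 CPM in L4 (log2 fold change 4.43 ± 0.35, SE, edgeR adjusted p = 0.000302). Nxph4, another neurexin ligand, had 18.7, 22.5 and 18.2 CPM in L5-6 and 3.12, 1.73 and 1.4 CPM in L4 (3.32 ± 0.30, edgeR adjusted p = 0.000457). Neither gene overlapped between the layers. Tmem163, a zinc transporter that is also on the list of new oligodendrocytes, and Nr4a2, an orphan nuclear receptor, had log2 fold changes of 1.77 ± 0.21 and 2.21 ± 0.30 (SE, edgeR adjusted p = 0.00129 and 0.00242). Moxd1 did not pass, at a log2 fold change of 0.69. Without mouse 3, 5 of the 8 members passed.

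Layer 5 genes separated the dissections less. Of 11 members 5 were higher and 1 was lower in L5-6, with a median log2 fold change of 0.58, and their summed level was 328, 462 and 407 CPM in L5-6 and 327, 481 and 426 CPM in L4. Pcp4, a calmodulin-binding peptide, had 37.7, 41.5 and 34.1 CPM in L5-6 against 16.9, 15.8 and 14.1 CPM in L4 (log2 fold change 1.28 ± 0.15, SE, edgeR adjusted p = 0.00118). Bcl11b, the transcription factor CTIP2 that guides corticospinal axons, had 90.4, 99.4 and 91.5 CPM in L5-6 against 30.6, 67.0 and 48 CPM in L4 (1.01 ± 0.16, edgeR adjusted p = 0.00436). Neither gene overlapped between the layers, and Bcl11b was even in L5-6 but varied in L4. Fezf2, which specifies layer 5 output neurons, had 28.5, 64.8 and 43.7 CPM in L5-6 against 24.7, 46.8 and 29.0 CPM in L4 and did not pass (0.43 ± 0.17, edgeR adjusted p = 0.103). In L2-3 it stood at 4.91, 9.69 and 3.19 CPM, below both other layers. It is described because it defines the layer, and was chosen after its values were seen. Etv1, a transcription factor of layer 5, had a log2 fold change of 0.32 ± 0.09 (SE, edgeR adjusted p = 0.0332) and overlapped between the layers. Pou3f1, the lower member, is also found in upper layers in development, and had 19.4, 43.2 and 64.0 CPM in L5-6 against 158, 176 and 194 CPM in L4 (-2.13 ± 0.27, edgeR adjusted p = 0.00186). Without mouse 3, 1 layer 5 gene was higher, and Bcl11b then had an edgeR adjusted p of 0.0552 and Etv1 of 0.289. Without mouse 2, 3 were higher and Etv1 had an edgeR adjusted p of 0.0917.

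Myelin genes had the highest median of the 36 lists, except without mouse 3, when the choroid plexus, ependyma and cilia list had 3.62 and the myelin list 2.88. Of 18 tested genes of myelin and mature oligodendrocytes, 14 were higher in L5-6 and none lower, with a median log2 fold change of 2.99, or 2.57 without mouse 1. All 11 tested genes of new oligodendrocytes were higher, with a median of 1.89, and 8 of 10 genes of their precursors, with a median of 0.75. Without mouse 1 these medians were 1.70 and 0.57. The median fold thus grew from the precursor list to the myelin list. Summed myelin genes stood at 3863, 1017 and 1950 CPM in L5-6 and 260, 188 and 222 CPM in L4. Summed precursor genes stood at 4166, 2888 and 3027 CPM in L5-6 and 2503, 2478 and 2481 CPM in L4. Mouse 1 was highest in L5-6 in both sums, and the lowest L5-6 library still lay above the highest L4 library.

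Mag, an adhesion protein of the innermost myelin wrap, had 137, 25.7 and 61.9 CPM in L5-6 and 3.71, 2.23 and 2.62 CPM in L4 (log2 fold change 4.54 ± 0.31, SE, edgeR adjusted p = 0.000176). The spread among mice was several-fold in L5-6 and small in L4. Cldn11, the claudin of myelin tight junctions, had 109, 23 and 59.1 CPM in L5-6 and 0.781, 1.4 and 2.62 CPM in L4 (5.20 ± 0.99, edgeR adjusted p = 0.00887). Its level in L2-3 averaged 20.6 CPM, above that of L4. Tmem125, listed with the myelin genes, had 4.98, 0.655 and 3.52 CPM in L5-6 and 0.0976, 0 and 0.136 CPM in L4 (5.01 ± 0.55, edgeR adjusted p = 0.000933). Cnp, a phosphodiesterase of myelinating cells, and Gjc3, a connexin, had log2 fold changes of 2.01 ± 0.16 and 3.23 ± 0.28 (SE, edgeR adjusted p = 0.000302 and 0.00038). The myelin genes that did not pass were Trf, Gjb1, Mal and Aspa, at log2 fold changes between 0.28 and 0.66. Opalin was below the filter on low counts, with 0.732, 0.0936 and 0.102 CPM in L5-6 and no read in L4. Cldn11 had a log2 fold change of 4.29 without mouse 1, 5.79 without mouse 2 and 5.98 without mouse 3, the last with an edgeR adjusted p of 0.0684.

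Among the genes of new oligodendrocytes, Bcas1, which marks cells that have begun to myelinate, had 332, 106 and 143 CPM in L5-6 and 30.1, 12.9 and 18.2 CPM in L4 (log2 fold change 3.17 ± 0.16, SE, edgeR adjusted p = 6.74e-05). Enpp6, a choline phosphodiesterase of newly formed oligodendrocytes, had 113, 30.4 and 53.1 CPM in L5-6 and 3.32, 1.90 and 3.53 CPM in L4 (4.34 ± 0.25, edgeR adjusted p = 8.7e-05). Gpr17, a receptor of cells committed to the lineage, had 725, 224 and 365 CPM in L5-6 and 144, 67.5 and 119 CPM in L4 (1.91 ± 0.16, edgeR adjusted p = 0.000346). All 3 genes were highest in mouse 1 and did not overlap between the layers. Sox10, the SOX factor of the lineage, had a log2 fold change of 1.89 ± 0.11 (SE, edgeR adjusted p = 8.7e-05). Of the precursor genes, Tnr, the matrix protein tenascin-R, had 607, 358 and 344 CPM in L5-6 and 125, 161 and 165 CPM in L4 (1.53 ± 0.24, edgeR adjusted p = 0.00433). C1ql1, Cspg4 (the NG2 proteoglycan) and Gpr37l1 had log2 fold changes of 0.85, 0.80 and 0.37 (edgeR adjusted p = 0.00354, 0.00408 and 0.00725). The 2 precursor genes that did not pass were Cspg5 at -0.26 and Ptprz1 at 0.36. Without mouse 2, 5 precursor genes passed and Gpr37l1 had an edgeR adjusted p of 0.0566. Without mouse 3, 3 passed, and Cspg4 and Gpr37l1 had edgeR adjusted p of 0.0518 and 0.134.

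**Figure D3:**
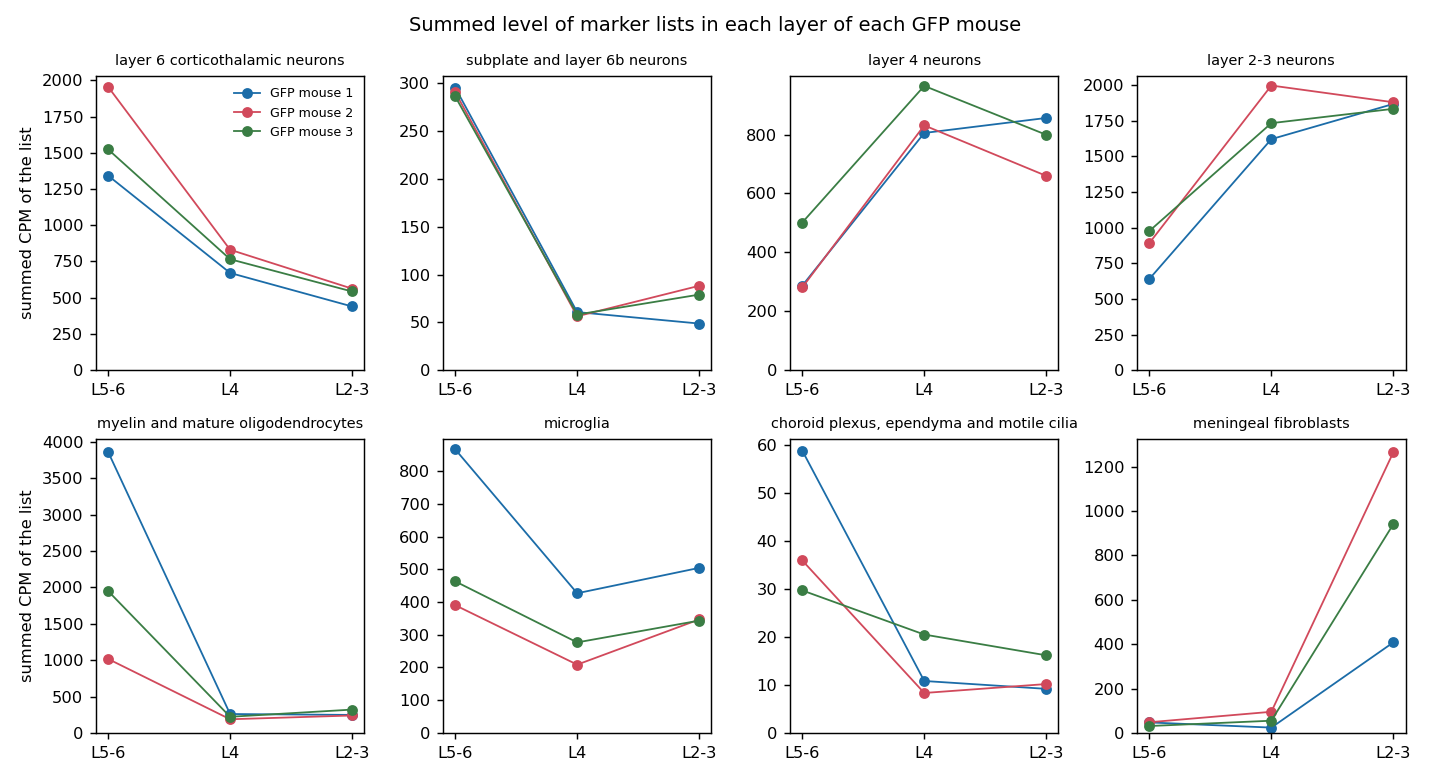
Summed CPM of the genes of 8 lists (y axis from 0) in L5-6, L4 and L2-3 (x axis), 1 point per library and 1 line per GFP mouse. The myelin sum was 3863, 1017 and 1950 CPM in L5-6 and at most 260 CPM in L4, and the layer 4 sum was at most 501 CPM in L5-6 and at least 806 CPM in L4.

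Astrocyte genes were higher in 10 of 15 and lower in none, with a median log2 fold change of 0.53. Their summed level was 7848, 4351 and 5341 CPM in L5-6 and 4774, 3343 and 4097 CPM in L4, so the groups overlapped. In L2-3 the sum was 5521, 4728 and 4680 CPM, above L4 in every mouse and above L5-6 in mouse 2. Gfap, the intermediate filament of white matter and reactive astrocytes, had 691, 189 and 238 CPM in L5-6 and 96.7, 55.3 and 49.2 CPM in L4 (log2 fold change 2.34 ± 0.24, SE, edgeR adjusted p = 0.000765). In L2-3 Gfap averaged 388 CPM. Clu (clusterin), Sox9 (a SOX factor) and Id3 (an inhibitor of bHLH factors) had log2 fold changes of 0.87, 1.02 and 1.11 (edgeR adjusted p = 0.000781, 0.00101 and 0.00162). The astrocyte transporters and channels were nearer to 0, with Slc1a2 at 0.40 passing, and Slc1a3 at 0.35 and Gjb6 at 0.17 not passing. Without mouse 1, 14 astrocyte genes were higher, without mouse 2 there were 6 and without mouse 3 there were 5.

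Microglia genes were higher in 11 of 12, with a median log2 fold change of 0.87. Their summed level was 867, 390 and 463 CPM in L5-6 and 427, 209 and 277 CPM in L4. Within every mouse L5-6 was higher, but L4 of mouse 1 exceeded L5-6 of mouse 2. In L2-3 the sum was 504, 347 and 343 CPM, between the other layers in every mouse. Cx3cr1, the fractalkine receptor, had 158, 63.3 and 81.2 CPM in L5-6 and 66.5, 28.0 and 44.1 CPM in L4 (log2 fold change 1.10 ± 0.13, SE, edgeR adjusted p = 0.00116). Trem2, a lipid receptor, had a log2 fold change of 1.30 ± 0.16, Csf1r, the receptor that microglia need to survive, of 0.91 ± 0.12, and C1qa, a complement subunit, of 0.92 ± 0.13 (SE, edgeR adjusted p = 0.00157, 0.0024 and 0.00276). Tmem119 did not pass, at 0.40. In a fit with no mouse block 0 of the 12 passed, and Cx3cr1, Trem2, Csf1r and C1qa had edgeR adjusted p of 0.11, 0.063, 0.101 and 0.153. Without mouse 3, 7 of the 12 passed.
Itgax and Spp1, which mark a microglial state of the early postnatal white matter, were among the 15 genes with the largest higher folds. Itgax (CD11c) had 2.20, 1.36 and 1.48 CPM in L5-6 and 0, 0 and 0.0904 CPM in L4, or 88 reads against 2, a ratio of 35.8 after scaling for library size, with a 95% counting interval of 9.63 to 300.5. Spp1 (osteopontin), which other cells also make, had 16.8, 11.3 and 11.8 CPM in L5-6 and 0.683, 0.0825 and 0.904 CPM in L4 (log2 fold change 4.59 ± 0.78, SE, edgeR adjusted p = 0.00596), or 5.31 without mouse 3.

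The other non-neuronal lists moved less or in single mice. Of 12 endothelial and pericyte genes 2 were higher, the pericyte genes Abcc9 and Pdgfrb with log2 fold changes of 0.70 and 0.71 (edgeR adjusted p = 0.00489 and 0.0307), and the median was 0.28. Without mouse 2 Pdgfrb had an edgeR adjusted p of 0.0569, and without mouse 3 Abcc9 and Pdgfrb had 0.0587 and 0.154. None of 4 tested red blood cell genes passed (median 0.34, Hbb-bs 0.35 with an edgeR adjusted p of 0.249), although 3 of the 4 passed without mouse 1; the globin genes have near-identical copies. Meningeal fibroblast genes were higher in 1 and lower in 2 of 9, with a median of -0.93, or -1.27, -0.33 and -0.45 without mouse 1, 2 and 3 in turn. Their summed level was 47.2, 48 and 31 CPM in L5-6, 23.9, 95.2 and 55.0 CPM in L4 and 408, 1264 and 940 CPM in L2-3. Dcn (decorin) had 0.952, 1.68 and 0.969 CPM in L5-6 and 0.585, 6.68 and 5.20 CPM in L4 (-1.81 ± 0.35, edgeR adjusted p = 0.00946), with L4 of mouse 1 unlike the other 2. Aldh1a2, a retinoic acid synthesis enzyme of the meninges, had a log2 fold change of -1.99 and Lum (lumican) of 0.56 (edgeR adjusted p = 0.0113 and 0.0262). Without mouse 1, 8 of the 9 were lower and 1 was higher, and without mouse 2 or without mouse 3 none passed; Dcn, Aldh1a2 and Lum then had edgeR adjusted p of 0.0963, 0.101 and 0.0919 without mouse 2 and of 0.162, 0.137 and 0.234 without mouse 3.

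Genes of the choroid plexus, ependyma and motile cilia, which belong to the ventricle below the white matter, were higher in 6 of 8, with a median log2 fold change of 1.69. The median was 1.18 without mouse 1, 1.25 without mouse 2 and 3.62 without mouse 3, whose L4 library had the highest sum of the 3. Their summed level was 58.9, 36 and 29.7 CPM in L5-6 and 10.8, 8.33 and 20.5 CPM in L4. Foxj1, the master regulator of motile cilia, had 27.2, 13.5 and 10.5 CPM in L5-6 and 3.71, 2.80 and 6.42 CPM in L4 (1.83 ± 0.37, edgeR adjusted p = 0.0105). Dnah12, a dynein heavy chain, had 3.37, 1.87 and 1.27 CPM in L5-6 and 0.0976, 0.0825 and 0.181 CPM in L4 (3.77 ± 0.42, edgeR adjusted p = 0.00103). Ccdc153, another ciliary gene, and Enkur, a protein of sperm and cilia, had log2 fold changes of 3.77 and 0.89 (edgeR adjusted p = 0.0121 and 0.0287). Ttr, the transthyretin of the choroid plexus, had 1.54 and did not pass. Of the 15 genes with the largest higher folds, Ccdc170, a coiled-coil protein, had 87 reads in L5-6 against 2 in L4, a ratio of 35.4 with a 95% counting interval of 9.52 to 297. Crocc2, a relative of the rootletin of ciliary rootlets, had 5.05, 1.82 and 1.58 CPM in L5-6 and 0, 0.0825 and 0.181 CPM in L4 (4.38 ± 0.71, edgeR adjusted p = 0.00475). Without mouse 2, 2 of the 8 listed genes passed; Foxj1 then had an edgeR adjusted p of 0.0635 and Enkur of 0.141, and Enkur had 0.179 without mouse 3. Without mouse 3 the log2 fold change of Foxj1 was 2.59, and the fitted values of Dnah12, Ccdc153 and Crocc2, at 4.70, 6.14 and 5.91, rested on 1 or 2 reads in L4. Without mouse 1 Ccdc153 and Crocc2 had 3.04 and 3.51.

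Genes of dividing cells were higher in 9 of 10, with a median log2 fold change of 0.88. Their summed level was 322, 185 and 183 CPM in L5-6 and 146, 126 and 121 CPM in L4. In L2-3 the sum was 176, 195 and 176 CPM, above L4 in every mouse and near L5-6 in mice 2 and 3. Mki67, the proliferation antigen Ki-67, had 73.4, 40.3 and 37.1 CPM in L5-6 and 26.2, 25.9 and 21.4 CPM in L4 (0.99 ± 0.18, edgeR adjusted p = 0.00797). The groups did not overlap, and mouse 1 was the highest in L5-6. Top2a, a topoisomerase of dividing cells, Mcm2, a helicase subunit, and Birc5 (survivin) had log2 fold changes of 0.90, 0.73 and 0.95 (edgeR adjusted p = 0.0153, 0.0116 and 0.0125). The median was 0.68 without mouse 1. Without mouse 2, 2 of the 10 passed, and Mcm2 and Birc5 had edgeR adjusted p of 0.064 and 0.0542. Without mouse 3 none passed, and Mki67, Top2a, Mcm2 and Birc5 had 0.0674, 0.114, 0.0619 and 0.105. Of 10 genes of the subventricular zone and of neuroblasts 3 were higher and 1 lower, with a median of 0.30. Igfbpl1, found in young neurons and progenitors, had 20.1, 16.3 and 12.4 CPM in L5-6 and 2.24, 1.90 and 2.53 CPM in L4 (2.82 ± 0.29, edgeR adjusted p = 0.000736), with no overlap. Pax6, a progenitor transcription factor, had a log2 fold change of 1.56 ± 0.21 (SE, edgeR adjusted p = 0.00227) and Sp8, of interneuron progenitors, of 1.21 ± 0.33 (edgeR adjusted p = 0.0316, then 0.062 without mouse 2 and 0.123 without mouse 3). Dcx (doublecortin), a microtubule protein of migrating and young neurons, was lower, with 465, 701 and 710 CPM in L5-6 and 755, 1275 and 1144 CPM in L4 (-0.75 ± 0.07, edgeR adjusted p = 0.000587).

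Genes of the regions that border the deep cortex were listed too, and the part of neighbouring tissue in the L5-6 libraries was not tested. Of 9 striatal genes 5 were higher and 1 lower, with a median log2 fold change of 0.96, or 0.67 without mouse 1. Ppp1r1b (DARPP-32), a phosphatase regulator of striatal neurons that layer 6 neurons also express, had 73.9, 35 and 52.2 CPM in L5-6 and 11, 5.86 and 12.6 CPM in L4 (2.43 ± 0.14, edgeR adjusted p = 8.7e-05). Tac1, the substance P precursor, had 18.2, 4.02 and 7.60 CPM in L5-6 and 1.07, 1.07 and 1.4 CPM in L4 (2.85 ± 0.44, edgeR adjusted p = 0.00383), and Drd2, the D2 dopamine receptor, 6.15, 2.25 and 4.54 CPM in L5-6 and 0.488, 0.825 and 0.633 CPM in L4 (2.64 ± 0.42, edgeR adjusted p = 0.00436). Mouse 1 had the highest and mouse 2 the lowest L5-6 value of all 3 genes. Without mouse 3, 2 striatal genes were higher and Drd2 had an edgeR adjusted p of 0.074. Of 7 claustrum and endopiriform genes 4 were higher and 2 lower, with a median of 0.48: Oprk1, the kappa opioid receptor, had a log2 fold change of 2.60 ± 0.33, Lxn (latexin), a protease inhibitor, of 0.60 ± 0.09, and Slc17a6 of -2.13 ± 0.18 (SE, edgeR adjusted p = 0.00189, 0.00339 and 0.000376). Without mouse 3, 2 were higher and Lxn had an edgeR adjusted p of 0.0757. Of 8 hippocampal genes 1 was higher and 2 lower, with a median of 0.04, while 12.7% of all genes tested were higher and 9.96% lower. Neurod6, a bHLH factor of pyramidal neurons, had 0.46, Wfs1 (wolframin) -0.54 and Lct (lactase) -1.66 (edgeR adjusted p = 0.035, 0.0141 and 0.0148). Without mouse 2, Neurod6 and Wfs1 had edgeR adjusted p of 0.182 and 0.0901, and without mouse 3 Neurod6, Wfs1 and Lct had 0.104, 0.111 and 0.131.

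Layer 4 genes were lower in L5-6 in 7 of 10, with a median log2 fold change of -1.02. Their summed level was 287, 281 and 501 CPM in L5-6 and 806, 831 and 965 CPM in L4, with no overlap and with mouse 3 highest in both layers. In L2-3 the sum was 856, 660 and 799 CPM, above L4 in mouse 1 and below it in mice 2 and 3, so the list set both layers apart from L5-6. Rorb, the nuclear receptor that organises layer 4 neurons, lies on chromosome 19 from 18930605 to 19111196. It had 41.5, 44.9 and 128 CPM in L5-6 and 240, 191 and 247 CPM in L4 (-1.75 ± 0.36, edgeR adjusted p = 0.0124). L5-6 of mouse 3 stood well above the other L5-6 libraries, and without mouse 2 the edgeR adjusted p was 0.0861. In L2-3 Rorb averaged 139 CPM. Cux1, a homeobox factor of layers 2 to 4, had 114, 85.1 and 145 CPM in L5-6 and 276, 299 and 321 CPM in L4 (-1.41 ± 0.13, edgeR adjusted p = 0.000457). Unc5d, a netrin receptor, had 19.2, 39.3 and 61.4 CPM in L5-6 and 86.3, 115 and 126 CPM in L4 (-1.52 ± 0.22, edgeR adjusted p = 0.00284). Kcnh5, a potassium channel, and Zmat4, a zinc finger protein, had log2 fold changes of -1.73 ± 0.20 and -1.27 ± 0.23 (SE, edgeR adjusted p = 0.00114 and 0.0072). Scnn1a, a sodium channel subunit used to mark layer 4 in adult mice, had -0.11, Rspo1 -0.05 and Il1rapl2 0.42, and none of these passed. Without mouse 2, 3 of the 10 passed and Zmat4 had an edgeR adjusted p of 0.0511.

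Layer 2-3 genes were lower in L5-6 in 9 of 11, with a median log2 fold change of -0.92. Their summed level was 640, 891 and 976 CPM in L5-6 and 1620, 1996 and 1732 CPM in L4, and at 1866, 1878 and 1832 CPM in L2-3 it was close to that of L4. Cux2, a relative of Cux1 in upper-layer neurons, had 53.6, 52.6 and 108 CPM in L5-6 and 303, 316 and 305 CPM in L4 (-2.16 ± 0.24, edgeR adjusted p = 0.000933). Mdga1, a membrane protein of migrating upper-layer neurons, had 58.4, 81.8 and 92.6 CPM in L5-6 and 350, 403 and 238 CPM in L4 (-2.06 ± 0.22, edgeR adjusted p = 0.000769). Inhba, an activin subunit, had 5.93, 5.66 and 12.7 CPM in L5-6 and 19.9, 28.6 and 35.9 CPM in L4 (-1.84 ± 0.18, edgeR adjusted p = 0.000612). None of these overlapped between the layers. Lhx2, a LIM homeobox factor, had a log2 fold change of -1.03 ± 0.08 (SE, edgeR adjusted p = 0.000302). Lmo4 at -0.12 and Otof at 0.54 did not pass. Without mouse 2 and without mouse 3, 6 of the 11 passed each time.
Of 6 genes of Cajal-Retzius cells, which lie at the surface of the cortex, 3 were lower and none higher, with a median of -1.16. All 3 are also made by interneurons, and Calb2, the third of them, is described there. Without mouse 2, 1 was lower. Reln (reelin), a secreted guide of neuronal migration, had 53.5, 113 and 127 CPM in L5-6 and 109, 241 and 198 CPM in L4 (-0.91 ± 0.09, edgeR adjusted p = 0.000736). Ndnf, a secreted factor of layer 1 interneurons, had 8.28, 5.99 and 8.87 CPM in L5-6 and 16.8, 16.3 and 14.4 CPM in L4 (-1.05 ± 0.28, edgeR adjusted p = 0.0297, then 0.122 without mouse 2 and 0.104 without mouse 3).

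**Figure D4:**
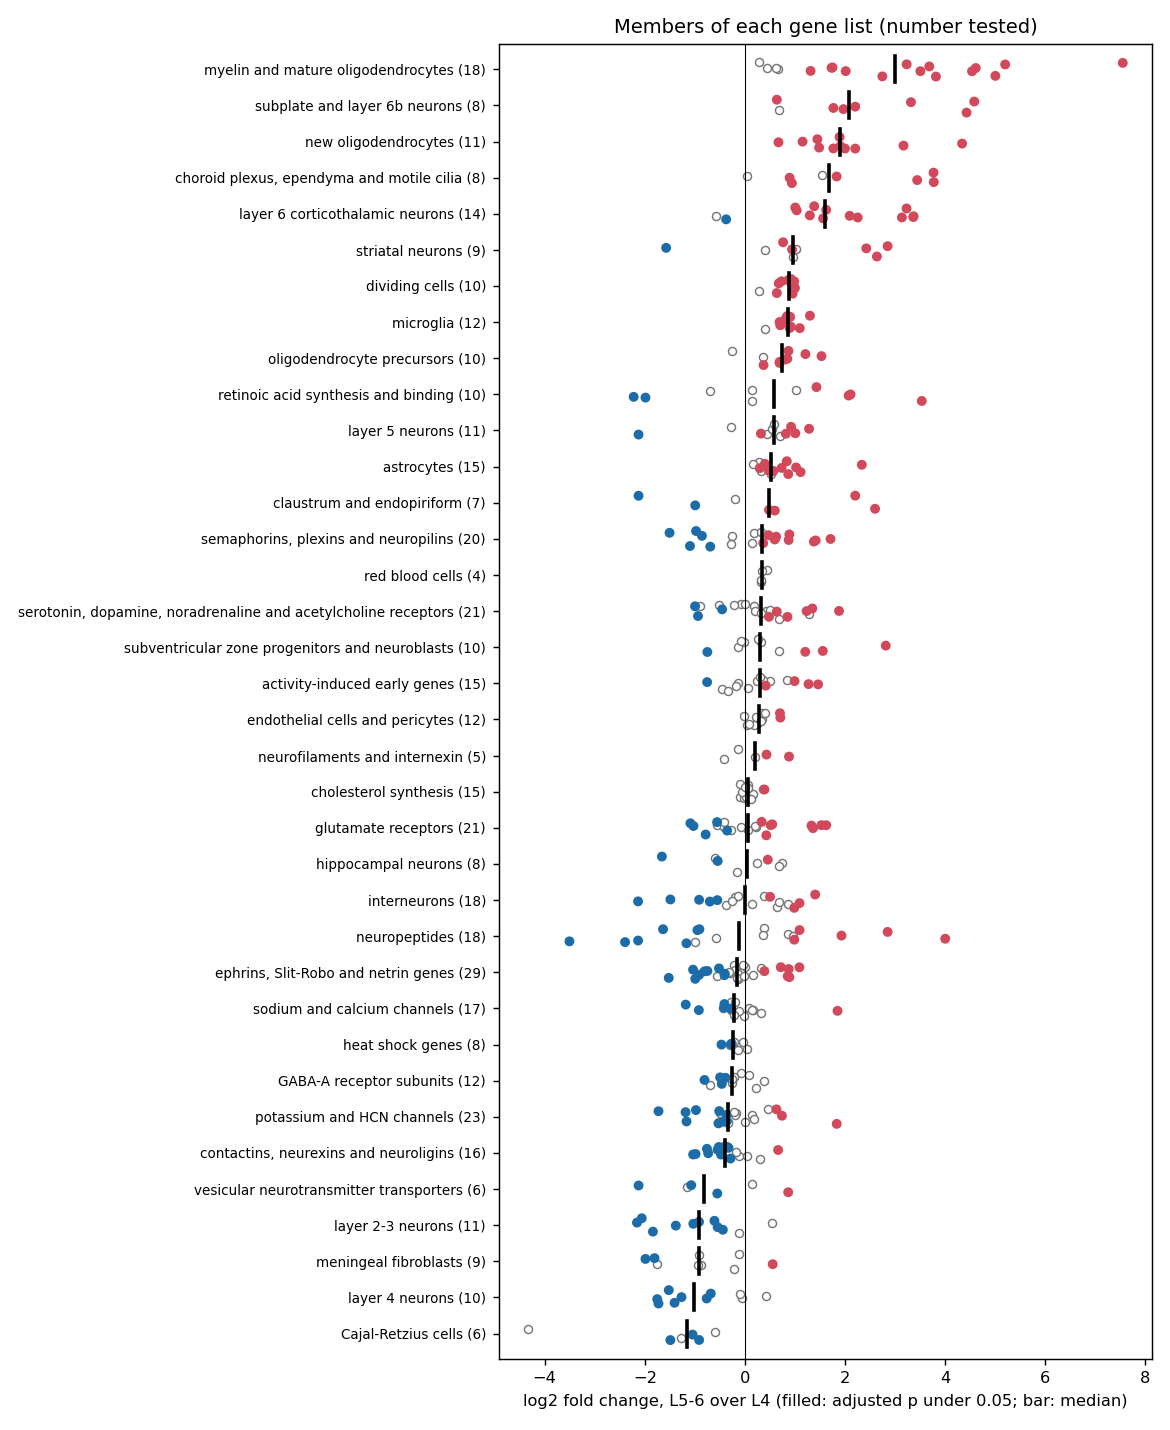
Log2 fold change of L5-6 over L4 (x axis) of each tested member of the gene lists, 1 row per list and 1 point per gene, filled where the adjusted p was under 0.05 (red higher, blue lower in L5-6) and open where it was not, with a bar at the median. The rows run by median between the myelin list (2.99) and the Cajal-Retzius list (-1.16), and the median of all genes tested was 0.00.

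Interneuron genes moved in both directions, with 4 of 18 higher and 5 lower, so that the median of the list was -0.0037. Vip, the peptide of a class found mostly in upper layers, lies on chromosome 10 from 5639218 to 5647617 and had 4.39, 3.88 and 6.83 CPM in L5-6 and 24.9, 23.3 and 19.5 CPM in L4 (log2 fold change -2.13 ± 0.25, SE, edgeR adjusted p = 0.00115). Calb2 (calretinin), often found in the same cells, had 4.17, 9.96 and 13.8 CPM in L5-6 and 20.2, 30.8 and 25.8 CPM in L4 (-1.49 ± 0.26, edgeR adjusted p = 0.00635). Sst (somatostatin), the peptide of a class common in deep layers, had 69.5, 77.7 and 108 CPM in L5-6 and 34.6, 43.1 and 50.5 CPM in L4 (0.99 ± 0.10, edgeR adjusted p = 0.000755). Npy (neuropeptide Y) had 46, 32.2 and 47.9 CPM in L5-6 and 18.9, 18.7 and 20.7 CPM in L4 (1.09 ± 0.12, edgeR adjusted p = 0.000794). None of these 4 overlapped between the layers, and in L2-3 Vip averaged 26.4 and Sst 18.6 CPM. Chodl and Nos1, which mark a rare class of long-range interneurons, had log2 fold changes of 1.4 and 0.50 and passed. Gad1 and Gad2, the GABA-synthesising enzymes of all interneurons, had -0.25 and 0.14 and did not pass, while Slc32a1, the GABA transporter of the same cells, was lower at -0.55 and is given below with the transporters. Without mouse 2, 3 were higher and 2 lower, and Calb2 had an edgeR adjusted p of 0.053. Without mouse 3, 2 were higher and 3 lower.

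Of 18 neuropeptide genes 5 were higher and 7 lower, with a median of -0.11. The largest change was that of Trh, the thyrotropin-releasing hormone precursor, with 10.3, 13.3 and 16.1 CPM in L5-6 and 0.976, 0.412 and 1.04 CPM in L4 (log2 fold change 4.0 ± 0.35, SE, edgeR adjusted p = 0.000383). Nts (neurotensin) was higher at 1.93. Ostn (osteocrin) had 0.0732, 0.0936 and 0.102 CPM in L5-6 and 1.37, 1.4 and 0.768 CPM in L4 (-3.51 ± 0.53, edgeR adjusted p = 0.00343). Tac2, the neurokinin B precursor, had 0.513, 0.515 and 1.27 CPM in L5-6 and 6.73, 2.72 and 3.93 CPM in L4 (-2.40 ± 0.35, edgeR adjusted p = 0.00305). Tac2 had -3.03 without mouse 3. These genes separated in every mouse, although Ostn stood near 1 CPM in the layer where it was higher. Crh, the corticotropin-releasing hormone, Spx (spexin), Pnoc (prepronociceptin) and Adcyap1 (PACAP) were also lower, between -1.64 and -0.91. With mouse 1 left out, 8 of the 18 were higher.

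Other genes with the largest folds belonged to none of the lists. Casr, the calcium-sensing receptor, had 7.69, 1.96 and 3.47 CPM in L5-6 and 0, 0.412 and 0 CPM in L4 (log2 fold change 4.97 ± 0.84, SE, edgeR adjusted p = 0.00578). All of its L4 reads were in mouse 2. The log2 fold change was 4.19 without mouse 1 and 4.15 without mouse 3 (edgeR adjusted p = 0.000662 and 0.0706), and without mouse 2 the fitted value of 9.33, against no read in L4, depends on the prior count. Ankrd63, an ankyrin repeat gene, had 9.30, 2.39 and 4.59 CPM in L5-6 and 0.0976, 0.0825 and 0.0904 CPM in L4 (5.67 ± 0.63, edgeR adjusted p = 0.000948). Lpar3, a lysophosphatidic acid receptor, had 93 reads in L5-6 against 3 in L4, a ratio of 25.2 with a 95% counting interval of 8.37 to 125. All 3 were highest in L5-6 of mouse 1, and without it Ankrd63 had a log2 fold change of 5.32. Among the lower genes, Gpr6, an orphan receptor coupled to cyclic AMP, had 2.49, 1.31 and 5.56 CPM in L5-6 and 13.5, 11.1 and 15.2 CPM in L4 (-2.16 ± 0.28, edgeR adjusted p = 0.00194). Dact2, a modulator of Wnt and TGF-beta signalling, had 10.2, 13.3 and 30.3 CPM in L5-6 and 81.3, 65.8 and 84.9 CPM in L4 (-2.15 ± 0.30, edgeR adjusted p = 0.0025). Ccbe1, a matrix protein of lymphatic growth, had a log2 fold change of -2.11 ± 0.21 (SE, edgeR adjusted p = 0.000678). Morc1, a germline silencing factor, and Naa11, an acetyltransferase subunit, had -2.60 ± 0.45 and -2.27 ± 0.40 (SE, edgeR adjusted p = 0.006 and 0.00658). Morc1 had -2.01 without mouse 2. Without mouse 2, Morc1 and Naa11 had edgeR adjusted p of 0.062 and 0.0517, and without mouse 3 of 0.0642 and 0.104.

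Of 6 vesicular transporters, which load transmitter into synaptic vesicles, 1 was higher and 3 lower, with a median of -0.81. Slc17a6 (VGLUT2), the glutamate transporter of thalamic and young cortical neurons, had 12.2, 22.2 and 35.3 CPM in L5-6 and 79.1, 98.9 and 114 CPM in L4, with no overlap. Slc17a7 (VGLUT1), the main cortical form, had 0.13 and did not pass. Slc17a8 (VGLUT3) had 7.03, 15.7 and 4.03 CPM in L5-6 and 3.32, 10.6 and 1.85 CPM in L4: it was higher within each mouse but overlapped between the layers (log2 fold change 0.87 ± 0.20, SE, edgeR adjusted p = 0.0172). Slc32a1, the GABA transporter, and Slc18a2, the monoamine transporter, had -0.55 ± 0.11 and -1.07 ± 0.25 (SE, edgeR adjusted p = 0.0101 and 0.0192). Without mouse 2, Slc32a1 and Slc18a2 had edgeR adjusted p of 0.0703 and 0.106, and without mouse 3 Slc17a8, Slc32a1 and Slc18a2 had 0.17, 0.0712 and 0.0552. Of 5 neurofilament genes, the filaments of large projecting axons, 2 were higher, with a median of 0.21. Nefm had 310, 454 and 401 CPM in L5-6 and 190, 214 and 224 CPM in L4 (0.88 ± 0.11, edgeR adjusted p = 0.00155), and Nefl 0.43 ± 0.11 (edgeR adjusted p = 0.0256, then 0.166 without mouse 2 and 0.18 without mouse 3).

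Of 21 receptors for serotonin, dopamine, noradrenaline and acetylcholine 6 were higher and 3 lower, with a median of 0.32. Adra2a, the alpha-2A adrenoceptor, had 25.9, 38.5 and 32.4 CPM in L5-6 and 13.3, 12.9 and 14.6 CPM in L4 (log2 fold change 1.23 ± 0.13, SE, edgeR adjusted p = 0.000789). Htr1f, a serotonin receptor of deep layers, had 1.68, 2.99 and 2.70 CPM in L5-6 and 0.683, 0.660 and 0.678 CPM in L4 (1.88 ± 0.29, edgeR adjusted p = 0.00387). Htr7, another serotonin receptor, and Chrm1, the M1 muscarinic receptor, had -1.0 ± 0.17 and -0.94 ± 0.17 (SE, edgeR adjusted p = 0.00595 and 0.00694). Without mouse 2, 1 gene was higher and 2 lower, with Htr1f at an edgeR adjusted p of 0.0525. Without mouse 3, 1 was higher and none lower, with Htr1f, Htr7 and Chrm1 at 0.08, 0.0517 and 0.058.
Of 21 glutamate receptor genes 8 were higher and 5 lower, with a median of 0.05. Grm8, a presynaptic metabotropic receptor, had 12.1, 20.6 and 16.1 CPM in L5-6 and 4.49, 9.24 and 5.60 CPM in L4 (1.36 ± 0.15, edgeR adjusted p = 0.000871). Grik4, like Grik3 a kainate receptor subunit, and Grin2c, an NMDA receptor subunit, had 1.33 ± 0.15 and 1.53 ± 0.21 (SE, edgeR adjusted p = 0.00106 and 0.00253). Grm2, Grik1, Grm7, Grin2b and Gria1 were lower, between -1.09 and -0.35. Without mouse 2, 4 were higher and 3 lower, and without mouse 3, 4 were higher and 2 lower.

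GABA-A receptor subunits were lower in 4 of 12 and higher in none, with a median of -0.25. Gabra4 had 37, 48.4 and 55.5 CPM in L5-6 and 68.0, 86.5 and 91.3 CPM in L4 (log2 fold change -0.81 ± 0.10, SE, edgeR adjusted p = 0.00164), and was the 1 subunit that passed without mouse 2 or without mouse 3. Gabrb1 and Gabra2 had -0.50 and -0.46 (edgeR adjusted p = 0.00627 and 0.0359). They had edgeR adjusted p of 0.0711 and 0.173 without mouse 2, and of 0.105 and 0.179 without mouse 3. Of 23 potassium and HCN channel genes 3 were higher and 9 lower, with a median of -0.34. Hcn4, a pacemaker channel, had 15.7, 28.5 and 31.6 CPM in L5-6 and 43.7, 59.4 and 64.3 CPM in L4 (-1.17 ± 0.11, edgeR adjusted p = 0.000575). Kcna1, an axonal Shaker channel, had 16.6, 20.1 and 15 CPM in L5-6 and 3.61, 5.03 and 5.69 CPM in L4 (1.84 ± 0.21, edgeR adjusted p = 0.00123), and Kcnab1, a subunit of such channels, had 0.74 ± 0.09 (edgeR adjusted p = 0.00133). Kcnq5 and Kcnq3, subunits of the M-current, were lower at -0.98 and -0.53. Without mouse 2, 5 of the channels were lower, and without mouse 3, 4. Of 17 sodium and calcium channel genes 1 was higher and 5 lower, with a median of -0.21. The higher gene was Scn4b, the beta-4 subunit of resurgent sodium current, with 7.84, 3.23 and 3.93 CPM in L5-6 and 1.37, 1.07 and 1.45 CPM in L4 (1.85 ± 0.29, edgeR adjusted p = 0.00422). Cacna2d1, an auxiliary calcium channel subunit, had -0.92 ± 0.09 and Cacna1i, a T-type calcium channel, -1.18 ± 0.18 (SE, edgeR adjusted p = 0.000701 and 0.00339). Cacna1b, the N-type calcium channel, had -0.41 (edgeR adjusted p = 0.0129, then 0.0523 without mouse 2 and 0.159 without mouse 3). Without mouse 1, 9 of these channels were lower, and without mouse 2 and without mouse 3, 2 each time.

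Guidance and adhesion genes, which steer axons and match synaptic partners, divided between the layers. Of 20 semaphorins, plexins and neuropilins 10 were higher and 5 lower, with a median of 0.34. Sema5b had 85.6, 59.5 and 55.0 CPM in L5-6 and 30.5, 18.6 and 27.6 CPM in L4 (log2 fold change 1.38 ± 0.15, SE, edgeR adjusted p = 0.00102), and Sema3a, a repellent of axons, 15.3, 23.3 and 28.4 CPM in L5-6 and 35.1, 47.3 and 47.5 CPM in L4 (-0.98 ± 0.10, edgeR adjusted p = 0.000794). Sema5a, Sema3d and Sema3e were higher at 1.71, 1.41 and 0.87, and the neuropilins Nrp1 and Nrp2, receptors of class 3 semaphorins, at 0.89 and 0.62. Their signalling partners Plxna1 and Plxna4 were lower, at -0.86 ± 0.10 and -0.69 ± 0.08 (SE, edgeR adjusted p = 0.00114 and 0.00111). Without mouse 3, 3 of the 20 were higher and 4 lower.
Of 29 ephrin, Slit-Robo and netrin genes 6 were higher and 9 lower, with a median of -0.16. Epha4, an Eph receptor that several ephrins bind, had 144, 245 and 230 CPM in L5-6 and 277, 476 and 414 CPM in L4 (-0.91 ± 0.08, edgeR adjusted p = 0.000457). Ephb1 had 72.0, 78.1 and 62.3 CPM in L5-6 and 37.9, 46.8 and 32 CPM in L4 (0.87 ± 0.08, edgeR adjusted p = 0.000576), and Efnb2, an ephrin ligand, -0.81 ± 0.09 (edgeR adjusted p = 0.00082). Without mouse 2, 2 were higher and 7 lower, and without mouse 3, 2 and 4. Contactins, neurexins and neuroligins were lower in 11 of 16 and higher in 1, Cntnap1 at 0.66, a protein of the junctions that flank nodes of Ranvier. The median of the list was -0.40. Cntn6 had 32.2, 51.4 and 44.4 CPM in L5-6 and 60.2, 90.6 and 66.2 CPM in L4 (-0.76 ± 0.11, edgeR adjusted p = 0.00281), and Cntnap5a, Cntnap2 and Cntn5 had -1.03, -0.48 and -0.73 (edgeR adjusted p = 0.00272, 0.00302 and 0.00359). Without mouse 2, 5 of the list were lower and Cntn5 had an edgeR adjusted p of 0.053. Without mouse 3, 3 were lower, and Cntnap2 and Cntn5 had 0.0889 and 0.0579.

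Of 10 genes of retinoic acid synthesis and binding 4 were higher and 2 lower, with a median of 0.58. Retinoic acid is made by aldehyde dehydrogenases and held by cellular binding proteins. Aldh1a1 had 23.9, 31.7 and 25 CPM in L5-6 and 7.61, 5.03 and 5.83 CPM in L4 (log2 fold change 2.11 ± 0.21, SE, edgeR adjusted p = 0.000658). Aldh1a3 had 0, 2.39 and 0.0510 CPM in L5-6 and 1.46, 9.57 and 0.0904 CPM in L4 (-2.22 ± 0.46, edgeR adjusted p = 0.0119), with almost all of its reads in mouse 2. Without mouse 2 its log2 fold change was -4.05, and in a fit with no mouse block its edgeR adjusted p was 0.467. Cyp26b1, which degrades retinoic acid, had 4.10, 11.1 and 3.42 CPM in L5-6 and 0.585, 1.48 and 1.85 CPM in L4 (2.07 ± 0.39, edgeR adjusted p = 0.00811). Crabp1, a binding protein, had 7.69, 1.68 and 3.72 CPM in L5-6 and 0.293, 0.247 and 0.407 CPM in L4 (3.53 ± 0.47, edgeR adjusted p = 0.00232), and Rbp4, the plasma retinol carrier, had 1.43 ± 0.26 (edgeR adjusted p = 0.00763). Cyp26b1 had a log2 fold change of 2.87 without mouse 3. Without mouse 2, Aldh1a3 and Cyp26b1 had edgeR adjusted p of 0.0804 and 0.082, and without mouse 3 Aldh1a3 and Rbp4 had 0.0684 and 0.0939.
Of 15 early genes that neuronal activity induces, 4 were higher and 1 lower, with a median of 0.29. Bdnf, a neurotrophin, had 2.86, 3.98 and 4.33 CPM in L5-6 and 0.781, 1.07 and 2.12 CPM in L4 (1.46 ± 0.24, edgeR adjusted p = 0.00478). Btg2, an antiproliferative gene, and Fos, a subunit of AP-1, had 1.27 and 0.99, and Egr3 had -0.75 (edgeR adjusted p = 0.0107, 0.0109 and 0.000933). Arc, Egr1 and Npas4 had 0.50, -0.14 and -0.18 and did not pass. Without mouse 2, 2 were higher and Bdnf had an edgeR adjusted p of 0.0507. Without mouse 3, 1 was higher, and Btg2 and Fos had 0.0921 and 0.111. Of 15 cholesterol synthesis genes 1 was higher, Lss (lanosterol synthase) at 0.37 (edgeR adjusted p = 0.0331, then 0.0711 without mouse 2 and 0.228 without mouse 3), and the median was 0.07. Of 8 heat shock genes 3 were lower, with a median of -0.24. Hsph1, Hspa8 and Hsp90aa1 had -0.47, -0.28 and -0.26 (edgeR adjusted p = 0.0119, 0.0344 and 0.0312). Hspa8 had an edgeR adjusted p of 0.0553 without mouse 1, Hspa8 and Hsp90aa1 of 0.0951 and 0.0928 without mouse 2, and all 3 did not pass without mouse 3 (0.112, 0.249 and 0.339).

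The same layers were compared in the 3 FOXP2 mice, which share no library with the GFP mice. Of 16390 genes tested there, 1767 (10.8%) were higher and 1403 (8.56%) lower in L5-6. Of the 1999 genes higher in GFP mice 1957 were tested in FOXP2 mice: 1925 of these (98.4%) had the same sign and 1096 (56%) passed with it. Of the 1564 genes lower in GFP mice 1533 (98.0%) had the same sign and 919 (58.8%) passed with it. None of either set passed in the opposite direction. Over all 15541 genes tested in both, 52.0% had a positive sign in FOXP2 mice. By list, the myelin genes were higher in 14 in FOXP2 mice (median log2 fold change 2.40), as in GFP mice (2.99), and the layer 6 genes were higher in 11 (median 1.67, against 1.59 in GFP mice). The subplate list had a median of 2.99 in FOXP2 mice, against 2.09 in GFP mice, and the layer 5 list of 1.16, against 0.58. The layer 4 list had a median of -0.50 in FOXP2 mice, against -1.02 in GFP mice. The choroid plexus, ependyma and cilia list had 0 higher genes in FOXP2 mice (median 0.49), against 6 in GFP mice (median 1.69), and the dividing cell list 3 (median 0.33), against 9 (median 0.88). The differences between these list medians were not tested.

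The difference between the contrasts was tested gene by gene as an interaction over all 18 libraries. Of 16970 genes 1 passed (0.00589%), by edgeR, and 941 (5.55%) had an unadjusted p under 0.05. The 1 gene was Foxp2, the gene that the FOXP2 mice received. In FOXP2 mice Foxp2 had 69.6, 39.6 and 77.8 CPM in L5-6 (moFoxp2 mouse 1, huFOXP2 mice 1 and 2) and 34.4, 33.2 and 64.8 CPM in L4, a log2 fold change of 0.52 ± 0.17 (SE, edgeR adjusted p = 0.0534), against 3.23 in GFP mice. The layer contrast of Foxp2 in FOXP2 mice passed with DESeq2 (DESeq2 adjusted p = 0.013) and with no filter on low counts (edgeR adjusted p = 4.07e-07). The difference, FOXP2 mice minus GFP mice, was -2.71 ± 0.34 (SE, edgeR adjusted p = 0.0235). Leaving out huFOXP2 mouse 1 or 2 gave the difference an edgeR adjusted p of 0.546 or 0.424, and leaving out GFP mouse 2 or 3 gave 0.133 or 0.149, while the difference itself stayed between -2.97 and -2.58 whichever mouse was left out. Gene counts do not tell plasmid-derived Foxp2 reads from those of the mouse's own gene. Genes of next smallest p did not pass in the main edgeR fit. Among them was Vxn (vexin), a factor of neurogenesis first described in Xenopus. It had 282, 187 and 169 CPM in L5-6 and 73.6, 63.7 and 60.4 CPM in L4 of GFP mice (1.67 ± 0.12, edgeR adjusted p = 0.000247). Its difference was -0.89 (edgeR adjusted p = 0.417). Crabp1 had a difference of -3.37 (edgeR adjusted p = 0.4), Htr2a of 1.07 (0.304), Tcerg1l of 1.06 (0.145) and Etv1 of 0.70 (0.4), by edgeR. With DESeq2 the differences of Tcerg1l, Htr2a, Vxn and Etv1 passed (DESeq2 adjusted p = 0.00216, 0.017, 0.0258 and 0.0323), and that of Crabp1 did not (0.0997). With no filter on low counts, those of Vxn, Crabp1, Tcerg1l, Htr2a and Etv1 passed (edgeR adjusted p = 6.38e-09, 1.31e-06, 3.81e-06, 2.60e-05 and 0.00244). These calls thus depend on the filter and the method. By edgeR, Tcerg1l passed without GFP mouse 3 (edgeR adjusted p = 0.0175) and with no other mouse left out. Crabp1 stood between 0.660 and 0.815 CPM in L5-6 of all 3 FOXP2 mice, below each GFP mouse. Htr2a, a serotonin receptor of layer 5, and Tcerg1l, a relative of a transcription elongation regulator, were both at -0.07 in GFP mice (edgeR adjusted p = 0.722 and 0.761), and at 1.01 and 1.0 in FOXP2 mice (edgeR adjusted p = 0.000341 and 4.57e-05).

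**Figure D5:**
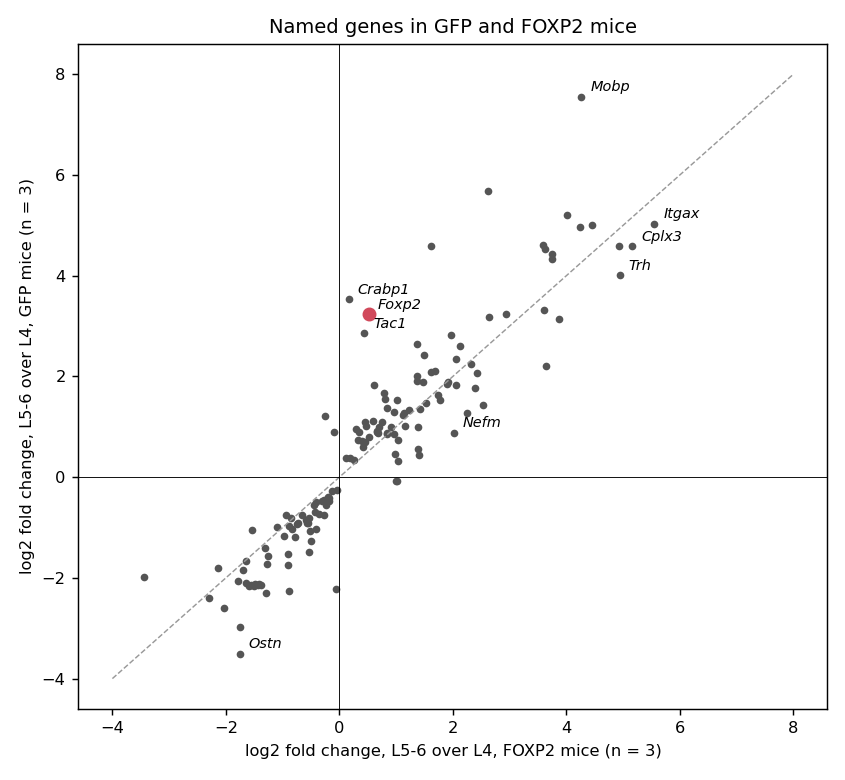
Log2 fold change of L5-6 over L4 in FOXP2 mice (x axis) against that in GFP mice (y axis), 1 point for each gene chosen by the naming rule and tested in both, with the line of equality dashed. Foxp2 (large red point) stands far from that line, at 0.52 in FOXP2 mice and 3.23 in GFP mice.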

How the data were processed

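RNA was measured in 18 mouse neocortex libraries, of which 6 were compared here. The authors deposited raw counts per gene for 54446 genes, whole numbers with no normalization. The submitters' processing notes name STAR, HTSeq and the mm10 build. Tool versions, gene models, strand setting and treatment of multiply mapped reads: not given in the sources used here. Groups came from the sample titles. Positions are from GENCODE M21, to which 54409 identifiers matched without version.

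Counts were tested with edgeR 4.0.16 (quasi-likelihood test, TMM, filterByExpr with a minimum count of 10 and a total of 15) in R 4.3.3, over the 9 GFP libraries with the mouse as a block. Adjusted p-values are by Benjamini-Hochberg over all genes tested, with a threshold of 0.05, and SE is the log2 fold change over the root of its F statistic. FOXP2 mice were fitted likewise, and the interaction over 18 libraries. The fit was also run on simulated data in which all genes had the same spread and no library stood apart. It therefore does not cover calls that moved with single mice. Labels say layers were pooled per mouse. Deviations of L5-6 and L4 from the mean of each layer correlated at 0.552, 0.608 and 0.63 within mice and at -0.386 to -0.146 between mice (14307 genes). Because such deviations cancel out over the mice, positive values within mice force negative ones between mice, which add no further evidence of pairing. Chi-square per degree of freedom between replicates was 9.09 to 54.3, so no library was a copy.

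The rule for described genes took Mobp, Cplx3, Foxp2 and Rorb, the largest folds at 1 CPM or more (15 genes or fewer per direction), the 4 or fewer of each list with the smallest p, and the leading genes of the interaction; unnamed (Gm and Rik) genes are left out, and some genes are not reported here. Fezf2 and other list members given by fold alone fall outside it. The 36 lists (447 genes), the members and the tests were chosen with earlier results of these data known. Alternatives were RLE size factors, no and stricter filters, DESeq2 1.42.0, no block, each mouse left out, only the 6 libraries and all 18. Intervals of read ratios cover counting error only.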

Additional observations from a re-analysis of the deposited data

Results flagged for a closer look

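The contrast of L5-6 over L4 differed between the FOXP2 and the GFP mice for Foxp2 by -2.71 on the log2 scale, by the edgeR interaction test over all 18 libraries. Foxp2 averaged 62.4 CPM in L5-6 and 44.1 CPM in L4 of FOXP2 mice, and 60.9 CPM in L5-6 and 6.69 CPM in L4 of GFP mice. The gap between the layers was thus smaller in the mice that had received human or mouse FOXP2 cDNA. The part of plasmid-derived reads in the L4 counts of these mice was not tested.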

How the results depend on the processing

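With 3 mice a group and 4 residual degrees of freedom, calls near the threshold moved with single mice. In GFP mice, with 3563 genes past the threshold (1999 higher, 1564 lower), leaving out 1 mouse gave 670 to 4332 genes (400 to 2484 higher, 270 to 1848 lower). With no replicate block there were 918 (590 higher, 328 lower), all among those called with the block. The other alternatives, namely RLE size factors, no filter, the stricter filter, DESeq2, only the 6 libraries and all 18, kept these counts within 1.5 times. In FOXP2 mice, with 3170 genes (1767 higher, 1403 lower), leaving out 1 mouse gave 907 to 1983 (547 to 1281 higher, 360 to 790 lower), and no replicate block 1504 (826 higher, 678 lower). For the difference between FOXP2 and GFP mice, with 1 gene (0 higher, 1 lower), leaving out 1 mouse gave 0 to 2 (0 to 1 higher, 0 to 1 lower), no replicate block 0 (0 lower), no filter 255 (136 higher, 119 lower) and DESeq2 10 (7 higher, 3 lower). The cause of these changes was not tested. Of 148 genes chosen by the naming rule, 53 lost their call with no replicate block, 37 without mouse 2, 47 without mouse 3, 1 without mouse 1, 3 with DESeq2, 3 with only the 6 libraries and 1 with all 18. The sign turned for Tcerg1l (0.11 without mouse 1, 0.01 without mouse 2, -0.31 without mouse 3) and Htr2a (0.04 without mouse 1, -0.16 without mouse 2), neither of them called. Foxp2's difference lost its call with no replicate block. Depth limits genes near 1 CPM, where the layer with the lower level held few reads. For genes with few reads in L4, such as Mobp, Ankrd63 and Tmem125, the SE can be smaller than the counting error.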
